A study of Mus musculus with 12 samples.

Results

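The genes described here are 10 markers by which pancreatic stellate cells and fibroblasts are recognised: Pdgfra, Pdgfrb, Fap, Pdpn, Thy1, Mme, Ly6a, Des, Nt5e and Eng. They were taken by name, and all 10 were found among the 16386 genes counted in the stellate cell line, while 6 of them were analysed among the 15309 genes counted in the tumour cell line. Pdgfrb, Pdpn, Thy1 and Des were not analysed in the tumour line. The mouse lines were PSC4 pancreatic stellate cells and KPC4 pancreatic adenocarcinoma cells, and no genotype is given for either. Supernatant is abbreviated SU.

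In the first step, PSC4 cells spent 24 h in starvation medium that KPC4 cells had conditioned for 14 h. The KPC4 donors had beforehand been exposed for 6 h to vehicle, which gave Control-SU, or to gemcitabine at 10 µM, which gave Gem-SU, and had then been washed. Gemcitabine is a nucleoside analogue that blocks DNA synthesis. In the second step, PSC4 cells became the donors: they were kept for 6 h in either supernatant, were rinsed, and then conditioned new starvation medium over 18 h. The resulting media, Control-PSC-SU and Gem-PSC-SU, were put on fresh KPC4 cells for 24 h. The 4 groups comprised 3 biological replicates apiece, and every recipient cell, controls included, had been kept in conditioned starvation medium. Each cell type is represented by 1 line, and nothing states whether replicates came from separate donor cultures, so p-values measure the spread between these samples. A group without supernatant and a group with drug alone were not analysed here.

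Stellate cells are mesenchymal cells of the pancreas that store vitamin A at rest and lay down matrix when activated. Pdgfra and Pdgfrb are receptor tyrosine kinases for platelet-derived growth factors, which drive growth and migration of these cells. Fap and Mme (neprilysin, CD10) are peptidases of the outer membrane, and Pdpn (podoplanin) is a mucin-like glycoprotein linked to the actin cytoskeleton through ezrin and moesin. Thy1 (CD90), Ly6a (Sca-1) and Nt5e (CD73) are held in the membrane by a lipid anchor, and Nt5e makes adenosine from AMP. Eng (endoglin, CD105) is a co-receptor for ligands of the TGF-beta and BMP family. Des (desmin) is an intermediate filament protein inside the cell and a classical stellate cell marker, not a surface protein.

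Library totals ranged from 29559414 to 38138356 counts for PSC4 and from 26354328 to 34744150 for KPC4. Mesenchymal genes were abundant in PSC4, among them Col1a1 at 3388 CPM ± 503 (SD, n = 3) in controls. CPM is the count of a gene scaled to a common library total of 1000000, with each total adjusted by a TMM factor computed within the line. Epithelial marker genes summed to between 16.1 and 23.0 CPM in the PSC4 libraries, against 6031 to 7533 CPM in KPC4. Of the defining epithelial markers, Epcam, Cdh1, Cldn4 and Esrp1 were not analysed in PSC4.

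The first question was whether the markers differ between PSC4 cells kept in Gem-SU and in Control-SU. Of the 10 markers, 8 fell with Gem-SU: Pdgfra, Mme, Nt5e, Ly6a, Pdgfrb, Thy1, Eng and Pdpn (edgeR quasi-likelihood test, adjusted p under 0.05 over all genes). Fap and Des did not pass, and 0 markers rose, also at an unadjusted p under 0.05 and by DESeq2. All 10 had passed the filter on low counts. Over the 13347 genes tested, 46.3% were called, 24.3% higher and 22.0% lower. The Gem-SU libraries all lay below the control libraries for the same 8 markers and for 27.1% of genes, and the groups were separate in either direction for 56.4%. Falls of at least 2-fold were found for 6 of the markers and for 11.7% of all genes tested. The median log2 fold change of the 10 was -1.24, against -0.00320 over all genes tested. Since the RNA came from whole cultures, fewer cells carrying a marker and less RNA per cell cannot be told apart.

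**Figure D1:**
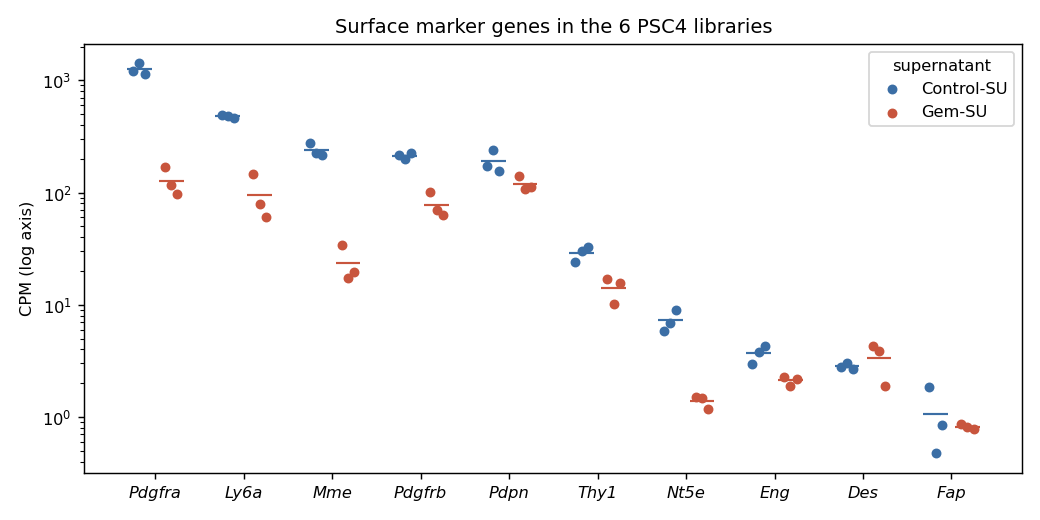
CPM on a log axis of the 10 marker genes in each PSC4 library with Control-SU or Gem-SU. Points are libraries and horizontal lines group means. The 3 Gem-SU libraries lie below the 3 Control-SU libraries for 8 genes, and the groups overlap for Des and Fap.

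Both receptors for platelet-derived growth factors fell. Pdgfra (ENSMUSG00000029231) stood at 1216, 1412 and 1146 CPM in Control-SU replicates 1 to 3 and at 168, 117 and 97.8 CPM in the Gem-SU replicates. Every Gem-SU library was thus far below every control library. The means were 1258 CPM ± 138 and 127 CPM ± 36.2 (SD, n = 3 per group), a 9.87-fold fall, with a log2 fold change of -3.30 (SE 0.25, adjusted p = 5.98e-05 by edgeR). Of the 13347 genes tested, 41 had a lower log2 fold change than Pdgfra.

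Pdgfrb (ENSMUSG00000024620), the receptor carried by pericytes and most fibroblasts, had 215, 201 and 225 CPM with Control-SU and 101, 70.1 and 63.6 CPM with Gem-SU. Its groups did not overlap either. Its log2 fold change of -1.45 (SE 0.19, adjusted p = 6.25e-04 by edgeR) was smaller in size than that of Pdgfra, a difference between the genes that was not tested.

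The balance of the receptors was therefore described within each library, a description chosen after the values were seen. Levels of different genes were compared as CPM per kilobase of exon, with the union of GENCODE M21 basic exons as length, 8767 bases for Pdgfra and 5478 for Pdgfrb. The level of Pdgfra over that of Pdgfrb was 3.54, 4.39 and 3.19 in the control libraries and 1.04, 1.04 and 0.961 in the Gem-SU libraries. The means were 3.71 ± 0.621 and 1.01 ± 0.0461 (SD, n = 3 per group). In Gem-SU libraries both receptors were thus at about the same level per kilobase, while in controls Pdgfra was higher. An exact two-sided permutation test of 3 against 3 libraries cannot give a p below 0.1, and no such test was run. The ratio does not depend on how the libraries are scaled.

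**Figure D2:**
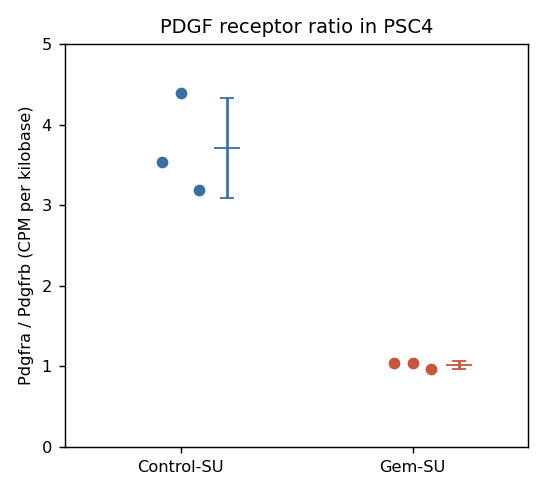
Ratio of Pdgfra to Pdgfrb (CPM per kilobase of exon for both) in the PSC4 libraries with Control-SU or Gem-SU. Points are libraries, and the bar beside them is the mean with the SD of 3 libraries. Control-SU libraries lie between 3.19 and 4.39 and Gem-SU libraries between 0.961 and 1.04.

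The membrane peptidases behaved unequally. Mme (ENSMUSG00000027820), which cleaves small peptides at the cell surface, had 275, 224 and 218 CPM in Control-SU libraries and 34.1, 17.3 and 19.7 CPM in Gem-SU libraries. The highest Gem-SU library lay far under the lowest control. Its log2 fold change was -3.33 (SE 0.28, adjusted p = 8.30e-05 by edgeR), a 10.1-fold fall, and 39 genes had a lower value. Fap (ENSMUSG00000000392), the peptidase used as a marker of activated fibroblasts, was low, with 64, 15 and 26 counts in controls and 33, 27 and 23 with Gem-SU. In CPM this was 1.86, 0.474 and 0.845 against 0.857, 0.811 and 0.779, and the Gem-SU libraries all lay inside the control range. Its log2 fold change was -0.38 (SE 0.55, adjusted p = 0.604 by edgeR), and it became 0.31 without Control-SU replicate 1.

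All 3 markers with a lipid anchor fell. Ly6a (ENSMUSG00000075602), a marker of mesenchymal progenitors and of inflammatory fibroblasts in mouse, had 496, 476 and 466 CPM in controls and 146, 79.2 and 60.6 CPM with Gem-SU. The control libraries were close together, whereas the Gem-SU libraries spread more than 2-fold. The log2 fold change was -2.33 (SE 0.31, adjusted p = 5.92e-04 by edgeR). Ly6a has close relatives in the genome, and how reads shared with them were divided is not given in the sources used here, so its value is uncertain to that extent.

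Nt5e (ENSMUSG00000032420) had 5.89, 6.91 and 8.97 CPM in controls and 1.51, 1.47 and 1.19 CPM with Gem-SU, without overlap. This low gene, with 203 to 276 counts in controls and 35 to 58 with Gem-SU, had a log2 fold change of -2.38 (SE 0.28, adjusted p = 3.76e-04 by edgeR). Thy1 (ENSMUSG00000032011) had 24.1, 29.8 and 32.9 CPM in controls and 16.8, 10.2 and 15.6 CPM with Gem-SU. Its groups were close but separate, with a log2 fold change of -1.03 (SE 0.23, adjusted p = 0.00708 by edgeR).

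The upstream sequences of Pdgfra, Mme and Nt5e are shown, the 3 genes with the largest falls among the markers with a RefSeq promoter here, so that they can be set beside one another. The sequences are from RefSeq on GRCm38.p6, run 5′ to 3′ on the strand of the gene, and hold the 250 bases before the listed start, all 3 genes lying on the plus strand. Capitals mark matches to 4 motifs, searched on both strands. The AP-1 motif was searched as TGANTCA. The TATA box was searched as TATAAA. The CCAAT motif was searched by those letters. The GC box was searched as GGGCGG, and none of the 4 contains another. Mme has 3 listed starts, of which the most upstream is shown. The windows are chr5:75152001-75152250 for Pdgfra, chr3:63294961-63295210 for Mme and chr9:88327359-88327608 for Nt5e.
Pdgfra: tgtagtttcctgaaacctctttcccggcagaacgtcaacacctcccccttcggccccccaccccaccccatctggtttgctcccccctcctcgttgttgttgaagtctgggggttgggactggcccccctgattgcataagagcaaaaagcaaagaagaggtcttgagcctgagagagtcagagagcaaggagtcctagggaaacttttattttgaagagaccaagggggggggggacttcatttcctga
Mme: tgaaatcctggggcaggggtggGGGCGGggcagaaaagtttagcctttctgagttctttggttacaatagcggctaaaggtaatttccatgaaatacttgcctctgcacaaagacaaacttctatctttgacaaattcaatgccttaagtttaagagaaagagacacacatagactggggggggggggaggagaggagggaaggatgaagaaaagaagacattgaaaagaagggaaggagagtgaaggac
Nt5e: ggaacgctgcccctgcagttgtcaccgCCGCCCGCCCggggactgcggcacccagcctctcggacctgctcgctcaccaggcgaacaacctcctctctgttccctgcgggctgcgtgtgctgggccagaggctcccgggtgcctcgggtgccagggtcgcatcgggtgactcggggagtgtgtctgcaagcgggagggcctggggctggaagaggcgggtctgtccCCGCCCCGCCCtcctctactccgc
The Pdgfra window held 0 matches to any of the 4 motifs, the Mme window 1 GC box and the Nt5e window 4 GC boxes, some of them overlapping each other. Over 32851 promoter windows of the same length, 32.7% held a GC box, 33.85% a CCAAT motif, 12.4% a TATA motif and 6.75% an AP-1 motif. The CG dinucleotide occurred 4 times before Pdgfra, 2 times before the upstream start of Mme and 21 times before Nt5e, with a median of 6 over all windows. No motif was thus found in all 3 windows shown. The other starts of Mme differed from the most upstream one. Both windows held 27 CG dinucleotides and 2 GC boxes, with 2 CCAAT motifs at the second start. The third start had 1 CCAAT motif and 1 AP-1 motif. These windows overlap, and the CCAAT motif of the third is also counted at the second. A match describes letters only. Promoter sequences were matched for 6 of the 10 markers. Those of Pdpn and Eng held 0 matches to the 4 motifs, with 2 and 4 CG dinucleotides, and that of Des held 2 GC boxes and 10 CG dinucleotides.

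Podoplanin and endoglin changed least among the markers that passed. Pdpn (ENSMUSG00000028583) had 174, 240.2 and 155 CPM in controls and 139, 107 and 111 CPM with Gem-SU. The highest Gem-SU library came near the lowest control. The log2 fold change was -0.67 (SE 0.20, adjusted p = 0.0238 by edgeR), and the adjusted p was 0.104 without Gem-SU replicate 2 and 0.0729 without Gem-SU replicate 3.

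Eng (ENSMUSG00000026814) had 2.96, 3.79 and 4.32 CPM in controls and 2.29, 1.89 and 2.17 CPM with Gem-SU, or 63 to 133 counts per library. Its groups did not overlap, but the log2 fold change of -0.80 (SE 0.29) was at the edge of the threshold (edgeR quasi-likelihood, adjusted p = 0.0493). It missed the threshold in 11 of 14 alternative fits, with adjusted p-values between 0.0318 and 0.305 over all 14, so that the call of Eng depended on the setting.

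Desmin, the marker inside the cell, did not fall with the others. Des (ENSMUSG00000026208) had 2.81, 3.00 and 2.70 CPM in controls and 4.31, 3.88 and 1.90 CPM with Gem-SU, which put Gem-SU libraries on both sides of the narrow control range. Its log2 fold change was 0.25 (SE 0.35, adjusted p = 0.587 by edgeR).

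The Gem-SU libraries differed among themselves in the same sense for all markers that fell. Replicate 1 was the highest of the Gem-SU libraries for all 8 of them, while the lowest was replicate 2 for 4 and replicate 3 for the other 4. Replicate 1 was also the highest Gem-SU library for Fap and Des, which had not passed. How often this held over all genes was not counted, so it cannot be called particular to the markers. The summed level of the 10 markers was 2412, 2598 and 2259 CPM in controls and 614, 409 and 375 CPM in Gem-SU replicates 1 to 3. Leaving out any single library left 6 or 7 markers called lower, and between 4061 and 6826 genes called in either direction. In the authors' deposited table, the same 8 markers had a negative log2 fold change with an adjusted p under 0.05, among them Pdgfra with -3.31.

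Per kilobase of exon, the control PSC4 libraries held the markers in the order Ly6a, Pdgfra, Pdpn, Pdgfrb, Mme, Thy1, Nt5e, Eng, Des and Fap. Levels ran from 477 CPM per kilobase ± 15.0 for Ly6a to 0.385 CPM per kilobase ± 0.260 for Fap (SD, n = 3 per group). Of the 9 pairs of neighbours in this order, Pdgfra and Pdpn overlapped, as did Eng and Des, and the other 7 were separate. With Gem-SU the order was Ly6a, Pdpn, Pdgfra, Pdgfrb, Thy1, Mme, Des, Eng, Nt5e and Fap. Ly6a and Pdpn then overlapped, as did Pdgfra and Pdgfrb, Des and Eng, and Nt5e and Fap. Pdpn had passed Pdgfra, Thy1 had passed Mme, and both Des and Eng had passed Nt5e. Des also stood above Eng, but these overlapped in both groups. Fap, Des, Eng and Nt5e were low in PSC4 in both groups, although they belong to the usual stellate cell and fibroblast markers.

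The genes that work with these markers were counted from lists chosen by function. Growth factors and co-receptors of the platelet-derived growth factor system numbered 8, all tested, of which 1 was higher and 3 were lower with Gem-SU. Pdgfa, a ligand that binds the receptor made by Pdgfra, rose from 15.6 CPM ± 5.10 to 48.3 CPM ± 7.48 (SD, n = 3 per group), by 1.63 on the log2 scale (edgeR quasi-likelihood, adjusted p = 0.00137). Pdgfc, another ligand of that receptor, fell with a log2 fold change of -1.11, and Pdgfrl with -1.54. Ligand transcripts thus moved in both directions while both receptors fell, and the median of the list was -0.73.

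Of 14 receptors, Smads and target genes around endoglin, 6 were called higher and 5 lower, with a median log2 fold change of 0.28. Tgfbr3 (betaglycan), the co-receptor most like endoglin, fell from 527 CPM ± 54.5 to 148 CPM ± 16.8 (SD, n = 3 per group), with a log2 fold change of -1.83, and Tgfbr2 fell with -1.03. Smad7, an inhibitor of the pathway that is itself induced by it, rose from 6.54 CPM ± 1.82 to 43.1 CPM ± 6.29, by 2.72, and Id2, a target of BMP signals, rose by 1.60.

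In the adenosine pathway around Nt5e, 9 of 12 genes were tested, with 0 higher, 3 lower and a median log2 fold change of -0.37. Adora2b and Adora2a, receptors for adenosine, fell with log2 fold changes of -2.17 and -1.21. Adora2b went from 19.6 CPM ± 0.955 to 4.33 CPM ± 2.19 (SD, n = 3 per group), so that Nt5e and both of these receptors were lower with Gem-SU. The peptidases related to Fap and Mme had 2 genes higher and 3 lower of 8 tested and a median of -0.087. Ace and Anpep fell with log2 fold changes of -1.42 and -1.47, and Prep and Ece1 rose by 0.81 and 0.40.

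The Ly6 family beside Ly6a had 6 genes tested, with 1 higher, 3 lower and a median log2 fold change of -0.80. Ly6c1, a marker of inflammatory fibroblasts in mouse, fell from 260.0 CPM ± 43.9 to 47.6 CPM ± 19.3 (SD, n = 3 per group), with a log2 fold change of -2.45. Ly6c2 fell with -3.61, and both share sequence with one another, so that their counts are uncertain. Plaur, the receptor for urokinase, whose protein has the same fold, rose by 2.24.

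Of the 6 genes tested around podoplanin, 3 were higher and 1 lower, with a median log2 fold change of 0.56. Ezr (ezrin), which ties podoplanin to actin, rose from 76.9 CPM ± 6.09 to 248 CPM ± 22.0 (SD, n = 3 per group), by 1.69 on the log2 scale. Cd44, a hyaluronan receptor that binds podoplanin, rose by 1.51 and Cd9, a tetraspanin partner, fell with a log2 fold change of -1.22. Around desmin, 2 of 7 filament genes tested were higher and 1 lower, with a median of 0.10. Flnc (filamin C) and Nes (nestin) rose by 1.92 and 1.34, and Vim (vimentin) fell from 1671 CPM ± 363 to 593 CPM ± 102 (SD, n = 3 per group), with a log2 fold change of -1.49.

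Other surface markers of mesenchymal cells were divided, with 4 higher, 3 lower and 9 not called of 16 tested. Mcam (CD146) and Alcam (CD166) rose by 1.75 and 1.19 on the log2 scale, and Itga1 and Cdh11 fell with log2 fold changes of -1.76 and -0.96. Their median log2 fold change was -0.11, and the shares called higher and lower were near the 24.3% and 22.0% of all genes tested. Mesenchymal and stellate identity genes, mostly of the matrix, had 1 higher and 9 lower of 14 tested, with a median log2 fold change of -1.02. Col3a1 and Dcn fell with log2 fold changes of -2.53 and -1.96, and Tagln, a contractile gene of myofibroblasts, rose by 3.25.

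Markers of other cell types were low in PSC4, and some were higher with Gem-SU. The 8 epithelial genes with values summed to 16.1 to 17.0 CPM with Control-SU and 18.2 to 23.0 CPM with Gem-SU, with 2 of 5 tested higher and 1 lower. Of these Krt19 rose by 1.38 on the log2 scale and Muc1 fell with a log2 fold change of -0.79. The endothelial genes summed to 1.57 to 2.87 CPM and 3.53 to 5.65 CPM, with 1 of 3 tested higher, Kdr, which was named after its value was seen. The leukocyte genes summed to 3.66 to 5.54 CPM and 5.35 to 6.03 CPM, with 0 of 2 tested called at an adjusted p under 0.05 (edgeR), 1 at an unadjusted p under 0.05 and 0 by DESeq2. The part of these cells in the fall of the markers was not tested.

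**Figure D3:**
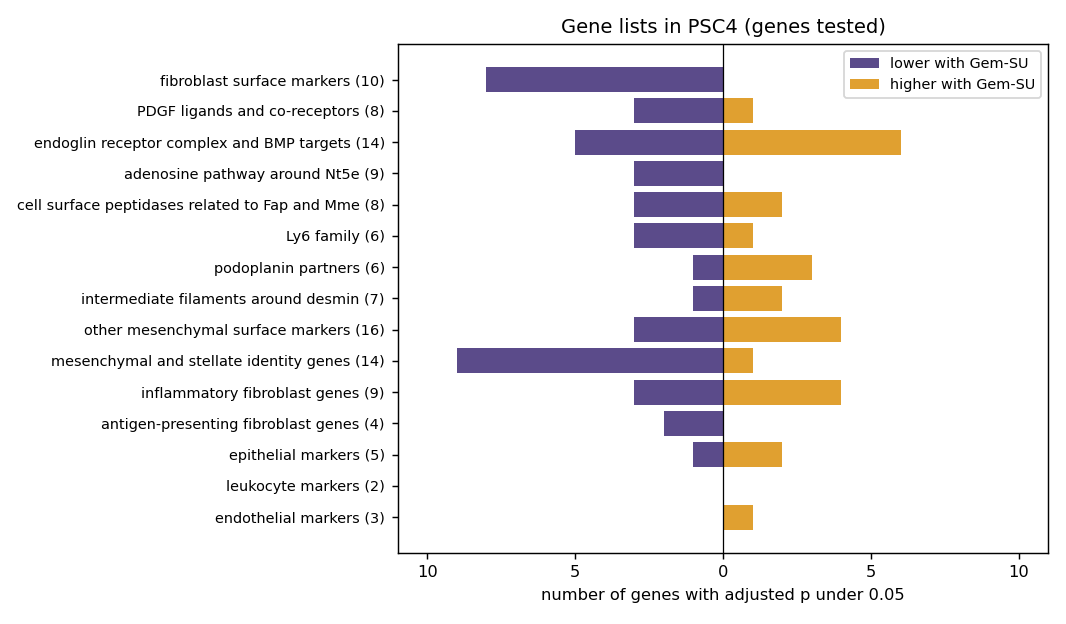
Number of genes in each list with an adjusted p under 0.05 in PSC4 (edgeR quasi-likelihood), lower with Gem-SU to the left and higher to the right. The number of genes tested is in brackets after each list. The surface markers have 8 lower and 0 higher, while the other mesenchymal surface markers have 3 lower and 4 higher.

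The next question was how far these genes mark the stellate line at all, and for this the control groups of both lines were set against each other in one fit of 12 libraries, scaled together by TMM. Line, supernatant and deposited table go together in this contrast and cannot be told apart. Of the 6 markers tested, 5 were higher in PSC4 and 1 was higher in KPC4, where 42.9% of 13632 genes were called, 22.3% higher in PSC4 and 20.6% lower.

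Pdgfra averaged 1271 CPM ± 129 in PSC4 controls and 0.507 CPM ± 0.365 in KPC4 controls (SD, n = 3 per group), a log2 difference of 11.28 (SE 0.54, adjusted p = 2.91e-09 by edgeR). Mme averaged 241 CPM ± 32.5 and 4.15 CPM ± 0.641, which is 58.1-fold higher in PSC4. For Eng the averages were 3.73 CPM ± 0.697 and 0.375 CPM ± 0.163. Fap was at or under 3 counts in all KPC4 controls, and against that limit per library it was at least 11.5-fold higher in PSC4 controls, or at least 7.13-fold without Control-SU replicate 1, a check added after the values were seen.

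Ly6a differed less between the lines. It averaged 484 CPM ± 16.1 in PSC4 controls and 241 CPM ± 20.4 in KPC4 controls (SD, n = 3 per group), a log2 difference of 1.01 (SE 0.27, adjusted p = 0.00887 by edgeR). With the gemcitabine arm of each step, the averages were 93.1 CPM ± 43.6 in PSC4 and 214 CPM ± 54.7 in KPC4, so that KPC4 then had the higher mean, a difference that was not tested.

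Nt5e ran against its role as a stellate cell marker here. It averaged 7.34 CPM ± 1.61 in PSC4 controls and 129 CPM ± 25.9 in KPC4 controls (SD, n = 3 per group), 17.6-fold higher in the tumour line, with a log2 difference of -4.14 (SE 0.33, adjusted p = 2.20e-07 by edgeR). In the gemcitabine arms its mean was 76.7-fold higher in KPC4.

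The second comparison asked whether KPC4 cells differ in these genes between Gem-PSC-SU and Control-PSC-SU. None of the 5 markers tested passed, and their median log2 fold change was -0.18, against -0.019 over all genes tested. Over 13236 genes, 0 were called by edgeR at an adjusted p under 0.05, a share of 0%. At an unadjusted p under 0.05 there were 2251 genes (17.0%) and 0 of the markers. DESeq2 called 822 genes (5.37%) while blocking on the replicate number gave 1171 genes (8.85%), again with 0 of the markers. Values given per marker for KPC4 are from the fit without the block. With the block, adjusted p-values of the 5 markers ran from 0.174 (Nt5e) to 0.673 (Pdgfra) (edgeR quasi-likelihood). The groups did not overlap for 22.8% of genes and for 0 of the 5 markers.

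**Figure D4:**
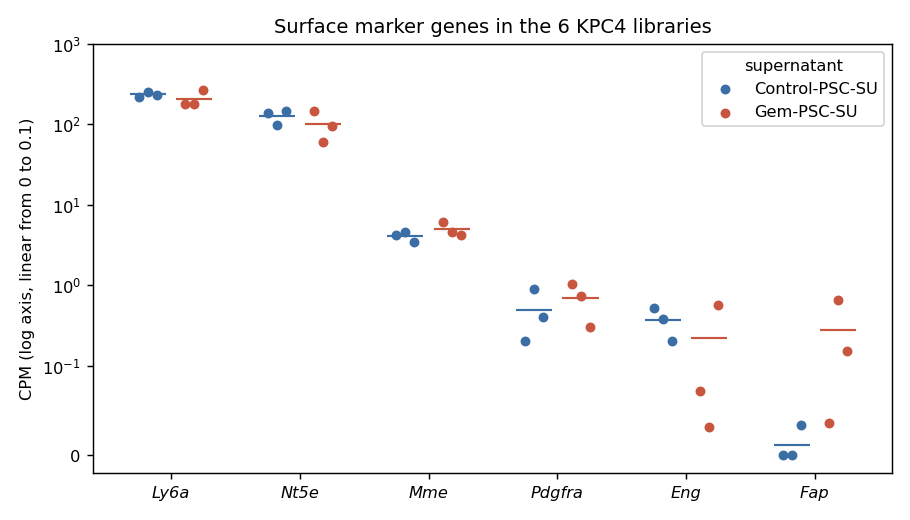
CPM of the 6 marker genes analysed in each KPC4 library with Control-PSC-SU or Gem-PSC-SU, on a log axis that is linear between 0 and 0.1. Points are libraries and horizontal lines group means. Ly6a and Nt5e lie above 60 CPM in all libraries, and the groups overlap for 5 genes.

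Ly6a was the most abundant marker in KPC4 per kilobase, with 219, 256 and 235 CPM under Control-PSC-SU and 178, 180.4 and 269 CPM under Gem-PSC-SU. Gem-PSC-SU replicate 3 was the highest library of all and the other 2 were the lowest. The log2 fold change was -0.18 (SE 0.20, adjusted p = 0.674 by edgeR). Nt5e had 140.2, 97.1 and 145 CPM in controls and 149, 61.3 and 95.3 CPM with Gem-PSC-SU, which gave a log2 fold change of -0.33 (SE 0.31, adjusted p = 0.616 by edgeR). In both groups replicate 2 was the lowest library for Nt5e.

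Mme had 4.27, 4.57 and 3.42 CPM in controls and 6.13, 4.62 and 4.26 CPM with Gem-PSC-SU, with a log2 fold change of 0.29 (SE 0.29, adjusted p = 0.625 by edgeR). Pdgfra was found at 7, 30 and 12 counts in controls and 29, 24 and 8 counts with Gem-PSC-SU, and Eng at 18, 13 and 6 counts and 2, 1 and 15 counts. At such counts only large changes could be detected. The log2 fold changes were 0.48 (SE 0.72) for Pdgfra and -0.76 (SE 0.99) for Eng. Single libraries moved both: with 1 library left out at a time, Pdgfra ranged from 0.078 (without Gem-PSC-SU replicate 1) to 1.21 (without Control-PSC-SU replicate 2). Eng ranged from -2.79 (without Gem-PSC-SU replicate 3) to -0.22 (without Gem-PSC-SU replicate 2), and neither gene passed in any of these fits.

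Fap was under the filter on low counts in KPC4, with 0, 0 and 1 counts in controls and 1, 21 and 4 counts with Gem-PSC-SU. A count of 3, the limit that a count of 0 allows, corresponds to between 0.0865 and 0.1005 CPM in the control libraries. The authors' deposited table lists it with a log2 fold change of 3.44 and an adjusted p of 0.442. Gem-PSC-SU replicate 2 held most of its counts, and Fap was left without a test. For Pdgfra the deposited log2 fold change of -0.11 differs in sign from the 0.48 given here, and neither passed a threshold.

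All lists together, markers included, had 108 genes tested in KPC4, of which edgeR called 0 without the block, 17 (15.7%) were at an unadjusted p under 0.05, against 17.0% of all genes tested. DESeq2 called 8 of the 108, and Il6, which the filter had left out of the edgeR test. Over all genes, without that filter, DESeq2 called 5.37%, a lower share than among the 108. The shares at an unadjusted p and with the replicate block were not above those of all genes. With the block 7 of the 108 (6.48%) passed, against 8.85% of all genes tested. The 7 are named here after their values were seen. They are Smad7, Plaur, Ezr, Lif (a cytokine of the IL-6 family) and Elf3 (an epithelial transcription factor), which were higher, and Smad5 and Itga1, which were lower. In PSC4 with Gem-SU, Smad7, Plaur, Ezr and Lif were higher too and Smad5 and Itga1 lower, while Elf3 had at most 3 counts in any library. With 46.3% of all genes called in PSC4, agreement of a few picked genes says little, and agreement over all genes was not tested.

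Whether the change itself differed between the lines was tested as an interaction in the fit of 12 libraries. The line and the step of the transfer go together here and cannot be told apart. Of the 6 markers tested, 4 had a lower change in PSC4 than in KPC4, namely Pdgfra, Mme, Ly6a and Nt5e, where 9.85% of 13632 genes were called and 5.10% in that direction. With the replicate block, 21.9% of genes were called, and the same 4 markers passed.

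The difference of the log2 fold changes, PSC4 minus KPC4, was -3.83 (SE 0.61, adjusted p = 0.00255 by edgeR) for Pdgfra and -3.68 (SE 0.37, adjusted p = 2.42e-04 by edgeR) for Mme. For Ly6a it was -2.21 (SE 0.39), and for Nt5e -2.11 (SE 0.43) (edgeR quasi-likelihood interaction, adjusted p = 0.00427 and 0.00944). Pdgfra rests on few counts in KPC4, whereas Ly6a and Nt5e had far more counts there. Eng and Fap did not pass (edgeR quasi-likelihood interaction, adjusted p = 0.972 and 0.0679), and the value of Fap depends on the low counts of its KPC4 controls.

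**Figure D5:**
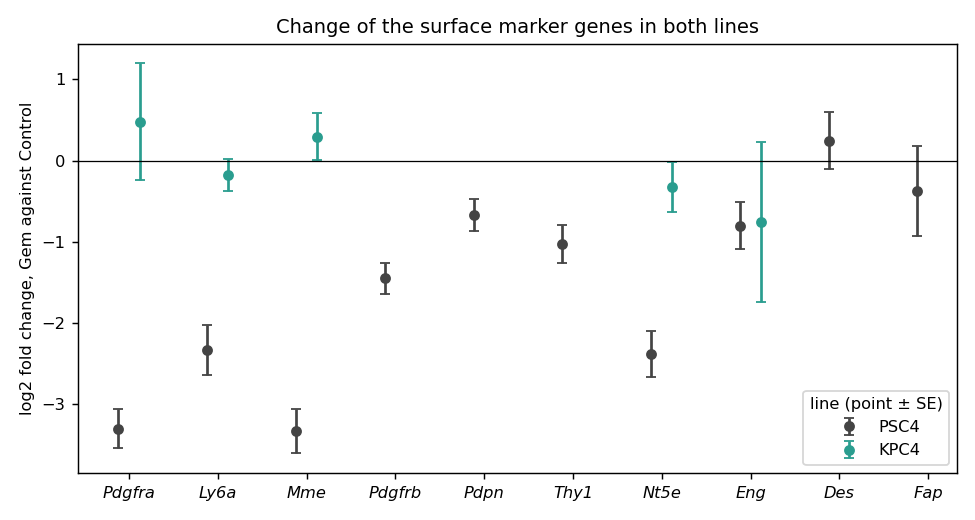
Log2 fold change of the marker genes, Gem-SU against Control-SU in PSC4 and Gem-PSC-SU against Control-PSC-SU in KPC4. Points are edgeR estimates and bars their standard errors, with KPC4 values for the 5 genes tested there. Values of Pdgfra, Ly6a, Mme and Nt5e lie at or below -2.33 in PSC4 and between -0.33 and 0.48 in KPC4.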

How the data were processed

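RNA of 12 cultures was sequenced, 6 of each line. The authors deposited whole-number raw gene counts per library, with gene identifiers, and per line a table of log2 fold changes with p-values and adjusted p-values, with DESeq2 column names. Per the submitters' processing notes, the tools were FastQC, Trim Galore 0.6.10, cutadapt 5.2, Salmon, R 4.5.1 and DESeq2, with the build GRCm39. The annotation, strand setting and row filter are not given in the sources used here. The smallest row total was 0 in the PSC4 and 11 in the KPC4 count table. Symbols came from GENCODE M21, which matched 99.7% of identifiers in both tables. The union of its exons gave gene lengths, which may differ from those of the transcripts counted. Promoters are RefSeq's on GRCm38.p6.

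Counts were tested in edgeR 4.0.16 (R 4.3.3): filterByExpr, TMM, robust quasi-likelihood test, Benjamini-Hochberg adjustment over all genes, threshold 0.05. The threshold, lists and members were chosen with earlier results of these data known. All 10 members are named, and per list at most 2 higher and 2 lower genes in PSC4, the largest changes among called genes with a mean of at least 50 counts. Same-numbered KPC4 libraries deviated together (correlations of 0.351, 0.436 and 0.211), so the numbers were taken to pair them, from the values alone. The main KPC4 test did not use this pairing, and the replicate block was run as an alternative. The fit was tested on simulated data. Alternatives were DESeq2 1.42.0, its size factors, plain totals, other filters, the replicate block, one fit of 12 libraries, robust estimation off and leaving out each library. Replicates differed by far more than counting noise (chi-square per degree of freedom at least 32.0). At these depths 1 count is a small part of a library, and limits from counts cover counting error only.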

Additional observations from a re-analysis of the deposited data

Results flagged for a closer look

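For 4 of the markers a test of the difference itself, the interaction over all 12 libraries, separated the change in PSC4 from that in KPC4. The difference of log2 fold changes (PSC4 minus KPC4) was -3.83 for Pdgfra, -3.68 for Mme, -2.21 for Ly6a and -2.11 for Nt5e. All 4 kept their sign and passed the threshold in every alternative that tested them (edgeR or DESeq2, highest adjusted p 0.0288, for Nt5e). Groups of 3 libraries were too small for a search for single outlying libraries.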

How the results depend on the processing

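Pdgfra, Mme, Ly6a, Nt5e, Pdgfrb and Thy1 fell in PSC4 under all alternatives run for them, 13 or 14 each. Pdpn missed the threshold in 2 of 13 and Eng in 11 of 14. The PSC4 gene count of 6177 ranged from 4061 (without Gem-SU replicate 2) to 6826 when 1 library was left out, and the number of markers called lower from 6 to 7. In one fit over all 12 libraries 4 of the 6 markers tested there were called lower, without Eng. That fit called 5473 of 13632 genes in either direction. Fap ranged from -0.76 to 0.31, the latter without Control-SU replicate 1. The PSC4 replicate numbers did not pair the libraries (correlations of 0.428, -0.0548 and 0.102, with 2 of 6 libraries correlating best with their own number), while a fit with the replicate block called 7266 genes. It called 5 genes lower, in place of 3, in each of the lists of PDGF ligands, the adenosine pathway and other mesenchymal surface markers, and 2 higher, in place of 1, in the Ly6 and identity lists. With the block 7 genes were higher and 6 lower in the endoglin list, and 3 and 4 among the peptidases. Higher genes numbered 4 around podoplanin, 5 among inflammatory genes and 3 among epithelial ones, and 10 identity genes were lower. With 1 library left out, the mean ratio of Pdgfra to Pdgfrb ran from 3.36 to 3.97 in controls and from 1.00 to 1.04 with Gem-SU.

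The KPC4 count of 0 genes became 1 with plain library totals, 822 with DESeq2, 1171 with the replicate block and 610 in one fit, and 0 to 1129 when 1 library was left out: 1129 when Gem-PSC-SU replicate 1 was dropped, 174 when replicate 2 of the Control-PSC-SU group was, and 1 when replicate 2 of the Gem-PSC-SU group was. No marker was called in any of these. The interaction count of 1343 became 2147 with DESeq2 and 2988 with the replicate block, and 610 to 1993 when 1 library was left out: 610 without PSC4 Gem-SU replicate 2, 812 without replicate 3 of that group, 810 without PSC4 Control-SU replicate 3, and, in KPC4, 779 without replicate 3 of the control group and 828 without that of the Gem-PSC-SU group. Between 4 and 5 markers then passed. The interaction of Eng turned to 0.31 with the replicate block and ranged from -0.63 to 1.93 when 1 library was left out, with 0.05, 0.20 and 1.93 without replicate 3 of the PSC4 control, KPC4 control and KPC4 gemcitabine groups. That of Fap passed with DESeq2 (adjusted p = 0.0263) and without KPC4 Gem-PSC-SU replicate 1 (edgeR, adjusted p = 0.0335). Requiring 10 counts in every library left 2 markers higher in PSC4 controls, since Pdgfra, Fap and Eng dropped out. The cause of the other shifts was not tested.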

Other observations

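Fibroblasts of pancreatic tumours are often divided into inflammatory and antigen-presenting states, and genes of both were counted from lists chosen by function. Over all genes tested in PSC4, 24.3% were higher and 22.0% lower with Gem-SU, so a few calls in lists this short say little. Of 9 inflammatory genes tested in PSC4, 4 were higher and 3 lower, and the median of their log2 fold changes was 0.58. Lif, a cytokine of the IL-6 family, rose from 5.47 CPM ± 1.59 to 188 CPM ± 45.7, and Il6 from 0.179 CPM ± 0.104 to 3.14 CPM ± 0.579 (SD, n = 3 per group). Cxcl12, a chemokine usually found with Pdgfra and Ly6a in such cells, fell from 1083 CPM ± 239 to 110 CPM ± 97.5, and Dpt fell with a log2 fold change of -2.78. Of 4 marker genes of the antigen-presenting state tested, 2 were lower, Saa3 with a log2 fold change of -2.28 and Slpi with -1.95. None were higher by edgeR, also at an unadjusted p under 0.05. Cd74 and Msln were not called (edgeR quasi-likelihood, adjusted p = 0.207 and 0.728). H2-Eb1 was under the filter on low counts, and H2-Aa and H2-Ab1 were not analysed, so the fall does not extend to genes of antigen presentation itself.

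The make-up of the marker set also shifted, as seen after the values were known. Per kilobase of exon, Pdpn made up 12.8% of the summed level of the 10 markers in controls and 33.6% with Gem-SU, as means of 3 libraries. Pdgfra went from 17.6% to 7.24% and Ly6a from 58.9% to 45.5%. Such shares depend on one another and on the gene lengths used.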
